A study of Mus musculus with 9 samples.

Results

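The transcripts of 10 receptors of the TNF receptor superfamily were followed in induced regulatory T (Treg) cells, CD4 T cells driven in culture towards expression of the transcription factor Foxp3. The receptors were Tnfrsf4 (OX40), Tnfrsf9 (CD137), Tnfrsf18 (GITR), Tnfrsf1b (TNF receptor type II), Tnfrsf1a (TNF receptor type I), Tnfrsf25 (death receptor 3), Tnfrsf14 (HVEM), Tnfrsf8 (CD30), Cd27 and Fas. They were picked by gene symbol from a count table of 28111 genes, and all 10 were among the 14817 genes tested. The libraries measure RNA, so nothing here is a level of receptor protein at the cell surface.

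The libraries came from C57BL/6J mice that carried a Glut1 transgene (Glut1Tg, 4 libraries) or from wild-type controls (WT, 5 libraries). Glut1 is the glucose transporter encoded by Slc2a1, and no source used here names the promoter or cell type that drives the transgene. The labels also put each library in a mouse group: WT replicates 1 and 3 with Glut1Tg replicates 2, 3 and 4 form mouse group 1, and WT replicates 2, 4 and 5 with Glut1Tg replicate 1 form mouse group 2. Those sources do not state what sets the mouse groups apart, how old the mice were or how the cells were cultured. Nor do they tie libraries to animals or cultures, and the p-values below therefore speak of library-to-library spread alone, part or all of which may be technical.

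Receptors of this superfamily are activated when a trimeric ligand of the TNF family draws them together. One class (OX40, CD137, GITR, TNF receptor type II, HVEM, CD30 and CD27) has no death domain and recruits TRAF adaptors, which lead to NF-kB signalling and costimulate T cells. Fas, TNF receptor type I and death receptor 3 carry a death domain and recruit adaptors such as FADD or TRADD. Treg cells are known for carrying OX40, GITR and TNF receptor type II, and CD137 appears on them after activation.

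Library totals ran from 20881035 to 31196428 counts. The labels held for Slc2a1, which was at 42.1 ± 12.6 CPM (normalised counts, scaled to a common TMM-adjusted library total) in the 5 WT libraries and 373 ± 121 CPM in the 4 Glut1Tg libraries (SD; edgeR quasi-likelihood test, Benjamini-Hochberg adjusted p = 0.000903), and Foxp3 was present in all libraries, at 621 to 1164 CPM. WT replicate 2 and Glut1Tg replicate 1, both of mouse group 2, stood apart. Their summed proliferation markers were at 4266 and 4233 CPM against 756 to 1868 CPM in the other 7 libraries, and their summed activation markers were at 3480 and 4456 CPM against 890.3 to 1343 CPM. Their summed markers of naive T cells were the lowest, at 2087 and 1341 CPM against 2324 to 5861 CPM. Glut1Tg replicate 3 stood apart by the markers of other blood cells: its mast cell and basophil markers summed to 2377 CPM (92.4 to 831 CPM elsewhere), its platelet and erythroid markers to 1017 CPM (4.12 to 270.5 CPM elsewhere) and its myeloid markers to 291 CPM (5.41 to 30.3 CPM elsewhere). Treg cell markers, again with Il2ra in the sum, summed to 4950.0 and 5047 CPM in WT replicate 2 and Glut1Tg replicate 1 and to 2627 to 3999 CPM elsewhere. Il2ra was a large part of the sums of those 2 libraries, so these sums do not show a rise of the Treg cell markers as a set. Foxp3 was at 1002 and 822 CPM in those 2 libraries, inside its range elsewhere. Of the 8 Treg cell genes, 2 were higher and 1 lower in mouse group 2 (edgeR adjusted p under 0.05), against 13.1% and 11.0% of all genes. Fold changes for mouse group were positive for 4 of them and negative for 4. T cell markers summed to 3070 to 4256 CPM over all libraries and CD8 T cell markers to 7.07 to 10.5 CPM. NK cell markers summed to 5.75 to 29.2 CPM, with Klra8 at 0 in all 9. In such bulk samples fewer cells of a type and less RNA per cell cannot be told apart.

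Of the 10 genes, 7 lie on mouse chromosome 4 in build mm10. The genes of OX40 and GITR are neighbours there, 9.551 kb apart on the plus strand (Tnfrsf4, ENSMUSG00000029075, chr4:156013843-156016612; Tnfrsf18, ENSMUSG00000041954, chr4:156026164-156028895). Tnfrsf9 (ENSMUSG00000028965, chr4:150914562-150946102) lies on the same chromosome, and Tnfrsf1b (ENSMUSG00000028599, chr4:145213463-145246870) and Tnfrsf8 (ENSMUSG00000028602, chr4:145267137-145315164) are neighbours on the minus strand, 20.266 kb apart. Tnfrsf4, Tnfrsf9 and Tnfrsf18 were high in the same libraries, so the 250 bases before each RefSeq start (GRCm38.p6, the same coordinates as mm10) were searched on both strands for a form of the kappaB site (3 G, any 2 bases, 3 T and 2 C) and for TGANTCA, a form of the AP-1 site. The kappaB form stood in 2 of the 12 windows of the receptors (1.41% of 32851 windows of all genes) and TGANTCA in 3 of 12 (6.75% of all windows). These are the matches, with the motif in capitals and 5 bases on each side, read on the strand of the gene.
Tnfrsf9 kappaB, chr4:150927951-150927970, plus strand: cagctGGGGATTTCCcagga
Tnfrsf9 AP-1, chr4:150927979-150927995, plus strand: tcagtTGAGTCAcaggt
Tnfrsf25 kappaB, chr4:152115711-152115730, plus strand (match on the other strand): cccagGGAAAAGCCCctggc
Tnfrsf8 AP-1, chr4:145315285-145315301, minus strand: agcccTGAGTCAtctct
Fas AP-1, chr19:34290443-34290459, plus strand: agtggTGAGTCAgtggg

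The Tnfrsf9 matches begin, with their flanks excluded, 43 and 15 bases before the more downstream of its 2 RefSeq starts, inside an exon of another annotated transcript. Windows holding both motifs numbered 42 of 32851 (0.128%). Neither motif was found in the windows of Tnfrsf4 and Tnfrsf18. Their longest stretches outside annotated exons are shown because these 2 genes were the closest neighbours and among the most alike in level.
Tnfrsf4, chr4:156013611-156013694, plus strand: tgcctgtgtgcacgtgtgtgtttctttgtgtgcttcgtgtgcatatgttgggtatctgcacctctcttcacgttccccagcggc
Tnfrsf18, chr4:156026072-156026163, plus strand: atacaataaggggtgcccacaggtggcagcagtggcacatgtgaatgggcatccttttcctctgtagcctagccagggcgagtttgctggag
A match is a description of letters and not a shown binding site, and the lack of one says only that these letters are not in these windows.

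The receptors differed in level by more than 2 orders of magnitude. Levels of different genes were compared as CPM per kb of annotated exon. GITR and OX40 had the highest means, with 163 ± 76.7 CPM per kb for Tnfrsf18 and 145 ± 66.7 CPM per kb for Tnfrsf4 (mean ± SD, n = 9 libraries). Tnfrsf1b followed at 90.3 ± 29.6, Cd27 at 75.2 ± 24.7 and Tnfrsf9 at 47.1 ± 37.7 CPM per kb. These 5 receptors made up 88.5% of the summed CPM per kb of the family, and each mean lay within the spread of its neighbour. Tnfrsf18 was at 268 and 322 CPM per kb in WT replicate 2 and Glut1Tg replicate 1, and at 107 to 139 CPM per kb elsewhere. In Glut1Tg replicates 2 and 4 Tnfrsf1b was the highest receptor, at 127 and 128 CPM per kb. Tnfrsf25 (26.9 ± 3.78 CPM per kb) was above Tnfrsf14 (17.7 ± 6.69 CPM per kb) in all 9 libraries. Tnfrsf14 and Fas (16.9 ± 1.80 CPM per kb) were not separated beyond their spread. Of the death domain receptors, Tnfrsf1a had the lowest level (6.04 ± 1.27 CPM per kb), below Fas in every library. CD30 had the lowest transcript level, with 0.375 ± 0.150 CPM per kb for Tnfrsf8, which rested on 21 to 56 counts a library.

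**Figure D1:**
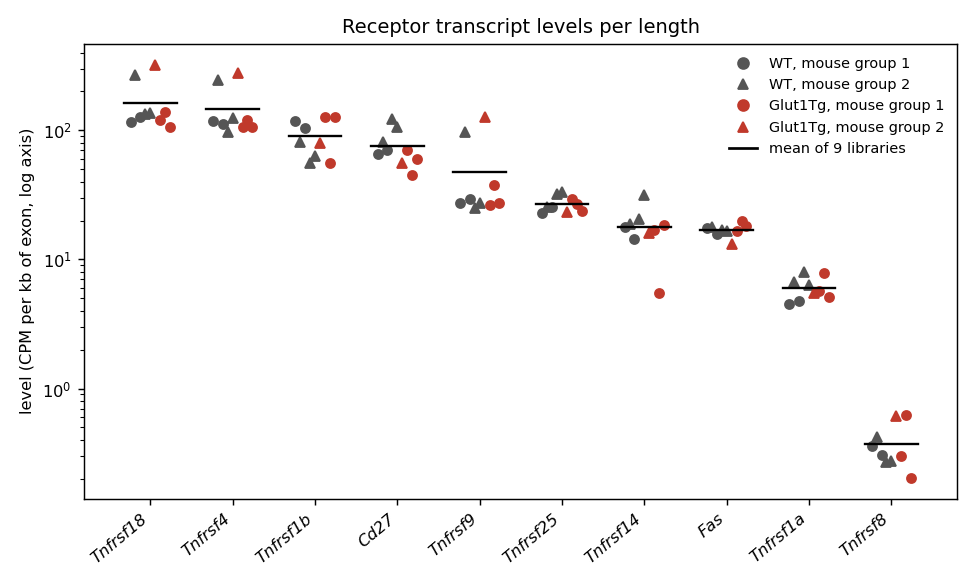
Level of each receptor transcript in the 9 libraries as CPM per kb of annotated exon, on a log axis; points are libraries, coloured by genotype and shaped by mouse group, and bars are the means of all 9 libraries. Tnfrsf18 and Tnfrsf4 have the highest means, and Tnfrsf8 lies below every other receptor in all 9 libraries.

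TNF receptor type II transcripts were far above those of type I. Per length, Tnfrsf1b stood at 7.04 to 26.3 times the level of Tnfrsf1a over the 9 libraries, with a median of 14.4. The ratio of Tnfrsf18 to Tnfrsf4 lay between 0.969 and 1.38 in all libraries. It was 1.08 in WT replicate 2 and 1.17 in Glut1Tg replicate 1, where both genes were high. Over the 7 libraries without these 2, the log2 CPM of the neighbouring genes correlated at only r = 0.26. By contrast the ratio of Cd27 to Tnfrsf9 ran from 0.437 in Glut1Tg replicate 1 and 0.838 in WT replicate 2 to 4.91 in WT replicate 4. Those first 2 libraries were the only ones with more Tnfrsf9 than Cd27 per length.

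OX40, a costimulatory receptor induced on activated T cells, had a high level in a single library of each genotype. Tnfrsf4 was at 162, 337, 153, 132 and 171 CPM in WT replicates 1 to 5 and at 376, 145, 163 and 144 CPM in Glut1Tg replicates 1 to 4. The high libraries were WT replicate 2 and Glut1Tg replicate 1, and the genotypes overlapped. The WT mean was 191 ± 83.0 CPM (SD, n = 5) and the Glut1Tg mean 207 ± 113 CPM (SD, n = 4). With mouse group in the model the genotype difference was a log2 fold change of 0.29 (SE 0.28, 95% interval -0.35 to 0.92; edgeR adjusted p = 0.744).

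CD137, another receptor induced by activation and widely used to mark T cells that have just met antigen, showed the same pattern with a wider range. Tnfrsf9 stood at 74.3, 264, 80.0, 68.1 and 74.0 CPM in the 5 WT libraries and at 345, 71.4, 103 and 73.9 CPM in the 4 Glut1Tg libraries. Again WT replicate 2 and Glut1Tg replicate 1 were high and the genotypes overlapped. The genotype log2 fold change was 0.61 (SE 0.43, 95% interval -0.35 to 1.57; edgeR adjusted p = 0.682). In the other 7 libraries Tnfrsf9 varied only from 68.1 to 103 CPM.

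GITR, which Treg cells carry constitutively and which is further induced on activation, was at 175, 408, 194, 204 and 208 CPM in WT replicates 1 to 5. In Glut1Tg replicates 1 to 4 Tnfrsf18 was at 491, 184, 211 and 162 CPM. The same 2 libraries were high. Its genotype log2 fold change was 0.35 (SE 0.25, 95% interval -0.23 to 0.92; edgeR adjusted p = 0.688).

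**Figure D2:**
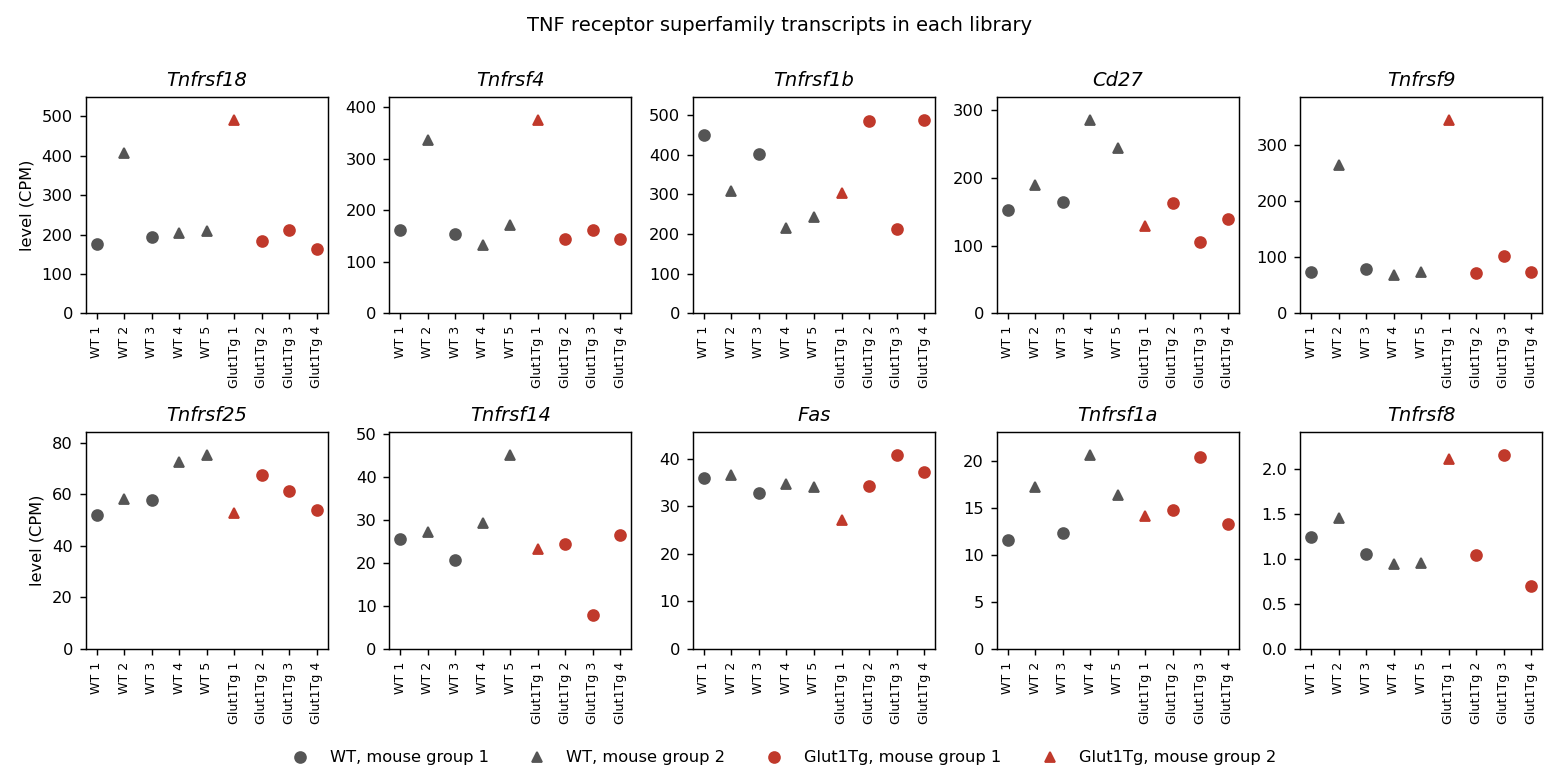
Level in CPM of each of the 10 receptor transcripts in the 5 WT and 4 Glut1Tg libraries, 1 panel a gene with its own axis from 0; circles are mouse group 1 and triangles mouse group 2. WT 2 and Glut1Tg 1 stand above the other libraries for Tnfrsf18, Tnfrsf4 and Tnfrsf9 and not for Tnfrsf1b, Tnfrsf25, Fas or Cd27.

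TNF receptor type II, the receptor through which TNF supports Treg cell expansion, followed a different order of libraries. Tnfrsf1b was at 450.3, 308, 400.2, 214 and 243 CPM in the WT libraries and at 302, 485, 213 and 487 CPM in the Glut1Tg libraries. The 4 highest libraries all belonged to mouse group 1, whose remaining library, Glut1Tg replicate 3, had the lowest level of all. That library is the one with the high mast cell, platelet and myeloid markers given above, and the part of those markers in its Tnfrsf1b level was not tested. Between genotypes the log2 fold change was 0.03 (SE 0.26, 95% interval -0.55 to 0.61; edgeR adjusted p = 0.972).

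CD27, the receptor for CD70 and present on resting T cells, had the smallest genotype p of the 10. Cd27 was at 152, 189, 165, 286 and 245 CPM in the WT libraries and at 129, 163, 106 and 139 CPM in the Glut1Tg libraries. All WT libraries lay above 3 of the 4 Glut1Tg libraries, and Glut1Tg replicate 2 lay among them. The WT mean was 208 ± 56.5 CPM (SD, n = 5) and the Glut1Tg mean 134 ± 23.9 CPM (SD, n = 4). The log2 fold change was -0.47 (SE 0.21, 95% interval -0.95 to 0.01), which missed the threshold (edgeR unadjusted p = 0.0533, adjusted p = 0.681). Within mouse group 1 alone, which has 2 WT and 3 Glut1Tg libraries, it was -0.23 (SE 0.21; adjusted p = 0.917). Within mouse group 2 alone, which has 1 Glut1Tg library, it was -0.92 (SE 0.34; unadjusted p = 0.0378, adjusted p = 0.621), and without the mouse group term it was -0.63 (SE 0.22; unadjusted p = 0.0170, adjusted p = 0.985). Cd27 overlaps Vamp1 on the opposite strand, as Tnfrsf9 overlaps Camta1 and Tnfrsf18 overlaps Gm16008, and no source used here gives the strand setting of the counting. Vamp1 was at 41.2, 41.5, 45.2, 65.4 and 83.3 CPM in WT and at 38.0, 46.7, 24.3 and 40.6 CPM in Glut1Tg. Its genotype log2 fold change was -0.41 (edgeR adjusted p = 0.681), with -0.01 for Camta1 and 0.43 for Gm16008. The part of the overlaps in the receptor counts was not tested.

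HVEM, a receptor for LIGHT that also binds the inhibitory receptors BTLA and CD160, was low in 1 library. Tnfrsf14 was at 25.5, 27.1, 20.6, 29.4 and 45.0 CPM in WT and at 23.1, 24.3, 7.87 and 26.4 CPM in Glut1Tg. The lowest value was that of Glut1Tg replicate 3 and the highest that of WT replicate 5, a 5.72-fold range that was the widest among the 10. The part of the high mast cell, platelet and myeloid markers of Glut1Tg replicate 3 in this value was not tested either. The genotype log2 fold change was -0.36 (SE 0.36, 95% interval -1.17 to 0.45; edgeR adjusted p = 0.747).

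CD30, a receptor of activated lymphocytes, was detected at 27, 36, 26, 24 and 26 counts in WT and 56, 21, 54 and 21 counts in Glut1Tg. In CPM, Tnfrsf8 was at 0.941 to 1.46 in WT and at 2.12, 1.04, 2.16 and 0.703 in Glut1Tg replicates 1 to 4, so Glut1Tg held both the 2 highest libraries and the lowest. The 95% exact Poisson interval of the count of 56 was 42.3 to 72.7 and that of the count of 36 was 25.2 to 49.8, covering counting error only. The genotype log2 fold change of 0.48 (SE 0.39, 95% interval -0.40 to 1.36; edgeR adjusted p = 0.699) had the widest interval after that of Tnfrsf9.

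The death domain receptors varied least. Fas, which triggers apoptosis when bound by Fas ligand, was at 35.8, 36.6, 32.7, 34.7 and 34.0 CPM in WT and at 27.1, 34.3, 40.7 and 37.2 CPM in Glut1Tg. The WT mean of 34.8 ± 1.53 CPM (SD, n = 5) and the Glut1Tg mean of 34.8 ± 5.79 CPM (SD, n = 4) were the most alike of the 10. Its genotype log2 fold change was -0.06 (95% interval -0.38 to 0.26; edgeR adjusted p = 0.904). Tnfrsf25, a death receptor that costimulates Treg cells when bound by TL1A, was at 51.8, 58.0, 58.0, 72.6 and 75.2 CPM in WT and at 52.9, 67.4, 61.4 and 54.1 CPM in Glut1Tg. The genotypes overlapped, with a log2 fold change of -0.05 (95% interval -0.41 to 0.32; edgeR adjusted p = 0.938). Tnfrsf1a, the widely expressed receptor through which TNF signals to inflammation or death, was at 11.6, 17.2, 12.3, 20.6 and 16.4 CPM in WT and at 14.2, 14.8, 20.4 and 13.3 CPM in Glut1Tg. Its means of 15.6 ± 3.71 and 15.7 ± 3.21 CPM (SD, n = 5 and n = 4) overlapped, with a log2 fold change of 0.14 (95% interval -0.36 to 0.65; edgeR adjusted p = 0.842).

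None of the 10 receptors passed the genotype test (0 of 10 at a Benjamini-Hochberg adjusted p under 0.05 in edgeR; 0.00675% of all genes tested passed, which is Slc2a1 alone). At an unadjusted p under 0.05 there were 0 of 10, against 6.00% of all genes. DESeq2 called 0 and limma on the deposited log2 values 0, and each had 1 at an unadjusted p under 0.05, Cd27. The fitted fold changes were positive for 6 receptors and negative for 4, with a median log2 fold change of 0.09 beside 0.02 for all genes. The genotypes' libraries did not overlap for 0 of 10 receptors, against 1.59% of all genes. Intervals were wide for several receptors: a 2-fold genotype difference lies inside the 95% interval of Tnfrsf9, Tnfrsf8 and, in the downward direction, Tnfrsf14, and outside that of the other 7.

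**Figure D3:**
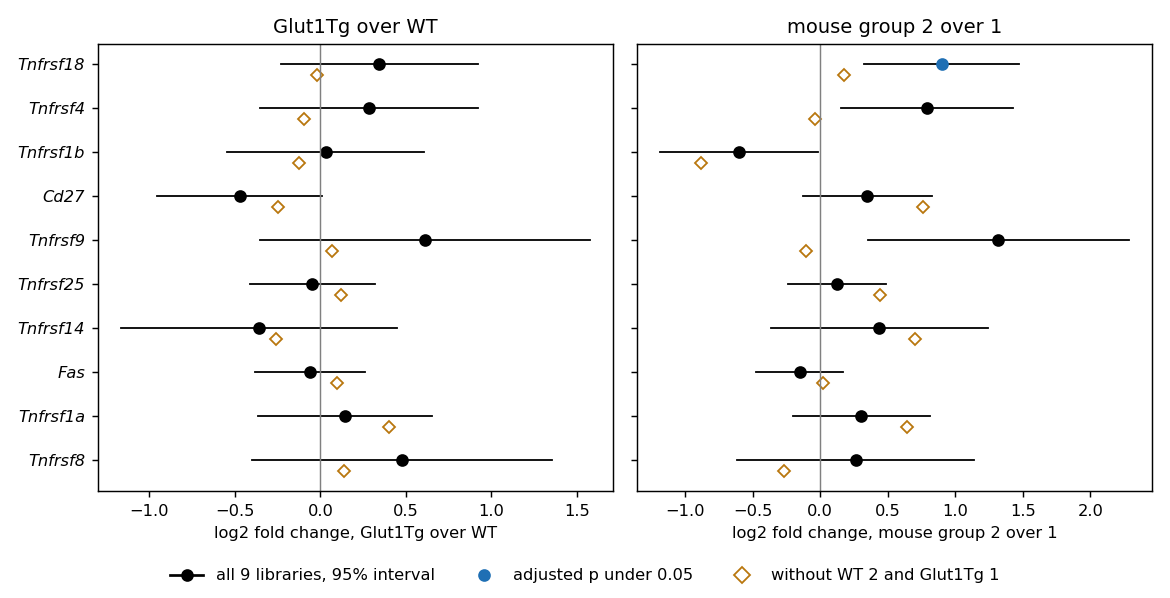
Fitted log2 fold changes of the 10 receptors for genotype (left) and mouse group (right); filled circles with 95% intervals are from all 9 libraries, blue where the adjusted p was under 0.05, and open diamonds are the values without WT 2 and Glut1Tg 1. The blue circle is Tnfrsf18 for mouse group, and its diamond lies near 0.17.

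The mouse groups of the labels gave larger differences. In that comparison 24.1% of all genes passed (13.1% higher and 11.0% lower in mouse group 2), and 1 of 10 receptors did. At an unadjusted p under 0.05 there were 4 of 10, 3 higher and 1 lower, against 39.4% of all genes. Tnfrsf18 was higher in mouse group 2 (328 ± 145 CPM, SD, n = 4) than in mouse group 1 (185 ± 18.6 CPM, SD, n = 5), a 1.87-fold difference with a 95% interval of 1.25 to 2.78 (edgeR log2 fold change 0.90, SE 0.25, adjusted p = 0.0325). WT replicates 4 and 5 of mouse group 2 stood at 204 and 208 CPM, inside the range of mouse group 1 (162 to 211 CPM), and only WT replicate 2 and Glut1Tg replicate 1 exceeded it. The log2 fold change of Tnfrsf18 was 0.17 without these 2 libraries, which also had the high proliferation markers and the high activation sum (SE 0.16; adjusted p = 0.581). The call was also lost within WT alone (log2 fold change 0.56; adjusted p = 0.319). Genes passing fell from 3576 with all 9 libraries to 561 without WT replicate 2 and Glut1Tg replicate 1 and to 790 within WT alone.

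Tnfrsf9 and Tnfrsf4 showed the same pattern and did not pass the edgeR test with low counts filtered. Tnfrsf9 was at 188 ± 139 CPM in mouse group 2 (SD, n = 4) and 80.6 ± 13.0 CPM in mouse group 1 (SD, n = 5), with a log2 fold change of 1.32 (SE 0.43; edgeR adjusted p = 0.0524). Tnfrsf4 was at 254 ± 120.3 CPM and 153 ± 8.85 CPM in the same groups, with a log2 fold change of 0.79 (SE 0.28; edgeR adjusted p = 0.0690). DESeq2 called both (adjusted p = 0.0124 and 0.0387), as did edgeR without the filter on low counts (adjusted p = 0.0239 and 0.0449). Limma on the deposited log2 values called neither (adjusted p = 0.106 and 0.113). Nor did edgeR without the genotype term (adjusted p = 0.0705 and 0.0803) or with the replicate number as a block (adjusted p = 0.0764 and 0.132). Leaving out WT replicate 2 and Glut1Tg replicate 1 turned the log2 fold changes to -0.10 for Tnfrsf9 (SE 0.19) and -0.04 for Tnfrsf4 (SE 0.17).

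Tnfrsf1b went the other way, at 267 ± 45.9 CPM in mouse group 2 (SD, n = 4) and 407 ± 114 CPM in mouse group 1 (SD, n = 5). The log2 fold change was -0.60 (SE 0.26; edgeR unadjusted p = 0.0446, adjusted p = 0.117). Without Glut1Tg replicate 3, the low library of mouse group 1, it was -0.70 (SE 0.13) and passed (adjusted p = 0.00827). It was -0.88 without WT replicate 2 and Glut1Tg replicate 1 (SE 0.39; adjusted p = 0.240). Cd27 had a mouse group log2 fold change of 0.35 (SE 0.21; adjusted p = 0.254). The remaining 5 receptors had log2 fold changes between -0.15 and 0.44, and none passed. The mouse groups did not overlap for 0 of 10 receptors, against 21.8% of all genes. The test of whether the genotype difference depends on mouse group called 0 genes, with 5.30% of genes and 0 of 10 receptors at an unadjusted p under 0.05. It rests on 1 Glut1Tg library in mouse group 2. It called 140 genes without WT replicate 2 and 3 without Glut1Tg replicate 3.

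Tnfrsf4, Tnfrsf9 and Tnfrsf18 were high in the same libraries. Their log2 CPM correlated at r = 0.98 (Tnfrsf4 with Tnfrsf9), 0.97 (Tnfrsf4 with Tnfrsf18) and 0.97 (Tnfrsf9 with Tnfrsf18) over 9 libraries. These libraries differ in depth, and the sources do not say which were prepared together. Over the 7 libraries without WT replicate 2 and Glut1Tg replicate 1 the values were 0.49, 0.26 and 0.39. Mki67, a marker of dividing cells, was at 1621 and 1652 CPM in those 2 libraries and at 346 to 808 CPM in the others, and Il2ra, the interleukin-2 receptor alpha chain, at 2386 and 2959 CPM against 241 to 690.0 CPM. WT replicate 5 had the third highest Mki67 (808 CPM). Its Tnfrsf18 (208 CPM) and Tnfrsf9 (74.0 CPM) lay inside the range of the remaining libraries. Its Tnfrsf4 (171 CPM) lay above their range of 132 to 163 CPM. The part of proliferation and activation in these receptor levels was not tested. Mast cell and basophil markers were lowest in the same 2 libraries (127 and 92.4 CPM), with Cpa3, a protease gene of those cells, at 2.48 and 3.56 CPM against 91.3 to 1670.0 CPM elsewhere.

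**Figure D4:**
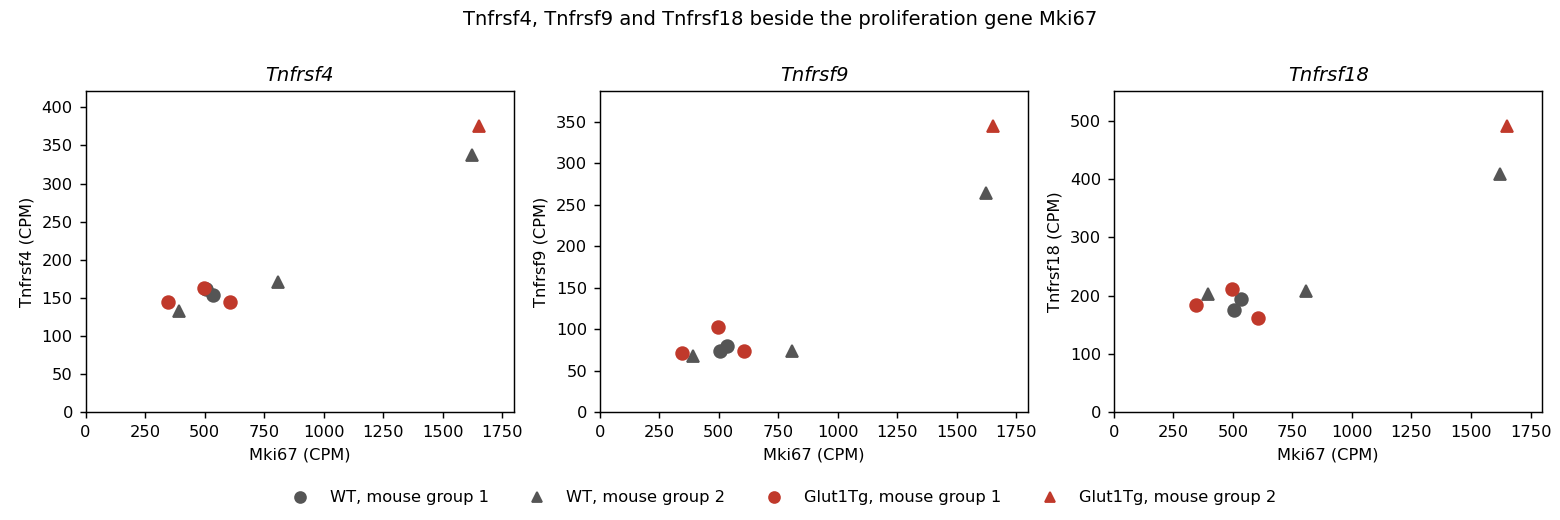
Level of Tnfrsf4, Tnfrsf9 and Tnfrsf18 (CPM, vertical axis) against Mki67 (CPM, horizontal axis) in the 9 libraries, coloured by genotype and shaped by mouse group. WT 2 and Glut1Tg 1 lie alone at the upper right, with Mki67 at 1621 and 1652 CPM, and the other 7 libraries form 1 cloud.

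The genes whose log2 CPM followed each receptor most closely over the 9 libraries were taken from 11057 protein-coding genes of at least 1 CPM, as a description. For Tnfrsf4 they were Nup205 and Nup155, which encode nucleoporins, with r of 0.994 and 0.990, and Bcat1, which encodes a branched-chain aminotransferase, with r of 0.991. For Tnfrsf9 they were Hells, a chromatin remodeller (r of 0.996), Chek1, the checkpoint kinase (r of 0.995), and Mthfd1l, an enzyme of mitochondrial folate metabolism (r of 0.994). For Tnfrsf18 they were Pcx, the gene of pyruvate carboxylase (r of 0.994), Helq, a DNA helicase gene (r of 0.993), and Slc16a3, the gene of a lactate exporter (r of 0.992). These 9 correlations were 0.728 to 0.909 without WT replicate 2 and Glut1Tg replicate 1. Tnfrsf1b was closest to Zfp518a, a zinc finger gene (r of 0.983), Stat3, a transcription factor of cytokine signalling (r of 0.982), and Bag4 (r of 0.977). Those correlations did not rest on the 2 libraries, being 0.984 to 0.994 without them. Stat3 was at 378 CPM in Glut1Tg replicate 3, its lowest library as for Tnfrsf1b, and at 540.2 CPM in Glut1Tg replicate 4, the highest for both genes.

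The rest of the pathway was described from 8 lists of receptors, ligands, adaptors and signalling genes that hold none of the 10 receptors. Of their 81 genes, 69 were tested. For genotype 0 of 69 passed the edgeR test. At an unadjusted p under 0.05 there were 2, Traf4 and Lta, both with positive fold changes, against 6.00% of all genes. DESeq2 and limma on the deposited log2 values called 0. For mouse group 23 of 69 passed (33.3%, beside 24.1% of all genes), 8 higher and 15 lower in mouse group 2. Of all genes 13.1% were higher and 11.0% lower, and the counts of each list below stand beside these shares.

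Among the other receptors 2 of 12 tested were higher and 2 lower in mouse group 2, with a median log2 fold change of -0.34 beside -0.01 for all genes. Tnfrsf26 fell from 199 ± 67.2 CPM in mouse group 1 (SD, n = 5) to 48.6 ± 18.5 CPM in mouse group 2 (SD, n = 4), a log2 fold change of -2.24 (edgeR adjusted p = 0.00456). Its neighbour Tnfrsf22, a decoy receptor gene of the mouse, had a log2 fold change of -0.64 (edgeR adjusted p = 0.0163). These genes have close relatives, and no source used here tells how reads shared between them were counted. Relt (log2 fold change 1.05; edgeR adjusted p = 0.0238) and Tnfrsf13b, the receptor TACI (0.65; edgeR adjusted p = 0.0439), were the higher ones. Without WT replicate 2 and Glut1Tg replicate 1, mouse group 2 held WT libraries alone, and genes passing fell from 3576 to 561. A call lost in that fit, here or in the lists below, therefore does not show that the difference is absent. None of the 12 passed in that fit. Tnfrsf26 was then at -1.77 (adjusted p = 0.0830) and Relt at 1.125 (adjusted p = 0.135), and both passed within WT alone (adjusted p = 0.0285 and 0.0353). Tnfrsf22 and Tnfrsf13b were at -0.47 and 0.14 without the 2 libraries.

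The ligands of the 10 receptors split by direction. Tnfsf8, the ligand of CD30, fell from 215 ± 47.0 CPM in mouse group 1 (SD, n = 5) to 88.7 ± 18.9 CPM in mouse group 2 (SD, n = 4; log2 fold change -1.31; edgeR adjusted p = 0.00495). Its 9 libraries did not overlap by mouse group, and the log2 fold change was -1.80 without WT replicate 2 and Glut1Tg replicate 1 (adjusted p = 0.0244). Cd160, a binding partner of HVEM, was higher in mouse group 2 (log2 fold change 0.95; edgeR adjusted p = 0.0423). The other 7 tested ligands and partners did not pass. Without WT replicate 2 and Glut1Tg replicate 1 the genes that passed were Tnfsf8, Tnfsf4 (log2 fold change -1.93; adjusted p = 0.0415) and Fasl (-2.06; adjusted p = 0.0458), all lower in mouse group 2. Lta, lymphotoxin alpha, was at 41.1, 149.6, 36.2, 34.5 and 75.4 CPM in WT and at 252, 34.8, 181 and 64.2 CPM in Glut1Tg, high in WT replicate 2, Glut1Tg replicate 1 and Glut1Tg replicate 3. Tnfsf18 (GITR ligand), Tnfsf15 and Cd70 had too few counts to be tested. Of the 6 other ligands tested, Tnfsf11 (RANKL) passed, with a log2 fold change of 2.14 (edgeR adjusted p = 0.0192). It was at 53.5 and 95.3 CPM in WT replicate 2 and Glut1Tg replicate 1 and at 5.37 to 24.5 CPM in the others, and 0 of the 6 passed without those libraries.

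Of the TRAF adaptors, which bind the cytoplasmic tails of these receptors, 1 of 6 was higher and 1 lower (13.1% and 11.0% of all genes). Traf6 fell from 561 ± 65.9 CPM in mouse group 1 (SD, n = 5) to 221 ± 59.8 CPM in mouse group 2 (SD, n = 4; log2 fold change -1.26; edgeR adjusted p = 0.00410), with no overlap of the groups. It was as low without WT replicate 2 and Glut1Tg replicate 1 (log2 fold change -1.57; adjusted p = 0.0287). Traf4 was higher in mouse group 2 (log2 fold change 0.76; edgeR adjusted p = 0.00687) and did not pass without those 2 libraries (0.64; adjusted p = 0.0945), though it did within WT alone (0.68; adjusted p = 0.0484). Traf1, Traf2, Traf3 and Traf5 had log2 fold changes of -0.20 to -0.36 and did not pass.

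In the death pathway 2 of 7 tested adaptors were higher in mouse group 2 (13.1% of all genes) and 0 lower, with a median log2 fold change of 0.39. Fadd, which links Fas to caspase 8, was higher by 1.32 (edgeR adjusted p = 0.0117) and Casp8 by 0.58 (edgeR adjusted p = 0.0337) on the log2 scale. Neither passed without WT replicate 2 and Glut1Tg replicate 1 (log2 fold changes 0.89 and 0.33). Of the genes for shedding, the protease gene Adam10 was higher by 0.88 (edgeR adjusted p = 0.0204) and Rhbdf2, which carries the TNF protease to the surface, lower (log2 fold change -0.59; edgeR adjusted p = 0.0249). Neither passed without those 2 libraries, where Adam10 was at 0.38 and Rhbdf2 at -0.70.

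The genes of the ubiquitin and NF-kB lists that passed were all lower in mouse group 2. Of the ubiquitin ligases and editors at the receptor complex 0 of 13 were higher and 5 lower in mouse group 2 (11.0% of all genes were lower). Their median log2 fold change was -0.39. Birc3, a ubiquitin ligase bound by TRAF adaptors, fell from 234 ± 35.2 CPM to 99.3 ± 7.90 CPM (SD, n = 5 and n = 4; log2 fold change -1.25; edgeR adjusted p = 0.00196). Otulin, which removes linear ubiquitin, fell by 1.23 on the log2 scale (edgeR adjusted p = 0.00120). Birc2 (-0.88), Tnip1 (-1.39) and Sharpin (-0.61) were the other 3. Without WT replicate 2 and Glut1Tg replicate 1 the log2 fold changes of Birc3 and Otulin were -1.38 (adjusted p = 0.0321) and -1.17 (adjusted p = 0.0263), and the other 3 did not pass. Tnip1 was at -1.27 without them (adjusted p = 0.151) and passed within WT alone (-1.37; adjusted p = 0.0287), while Birc2 was at -0.65 and Sharpin at -0.27 without them. The NF-kB genes gave 0 of 12 higher and 5 lower (11.0% of all genes were lower), with a median log2 fold change of -0.44. Relb, a subunit of the noncanonical pathway that TNF receptors of the costimulatory class activate, fell from 211 ± 26.2 CPM to 66.5 ± 4.25 CPM (SD, n = 5 and n = 4; log2 fold change -1.62; edgeR adjusted p = 0.00120). Rel (-1.12), Rela (-0.48), Nfkbie (-1.24) and Ikbkg (-0.46) also fell. Relb passed without the 2 libraries (log2 fold change -1.58; adjusted p = 0.0244) and within WT alone (-1.63; adjusted p = 0.0196), while the other 4 did not pass without them. Of those 4, Rel (-1.43; adjusted p = 0.0700) and Nfkbie (-1.38; adjusted p = 0.0739) kept log2 fold changes at least as large without the 2 libraries and passed within WT alone (adjusted p = 0.0460 and 0.0218), while Rela and Ikbkg were at -0.30 and -0.32 without the 2 libraries. Nfkb1 was at 663 and 735 CPM in WT replicate 2 and Glut1Tg replicate 1 against 357 to 467 CPM elsewhere, and did not pass (edgeR adjusted p = 0.0669).

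**Figure D5:**
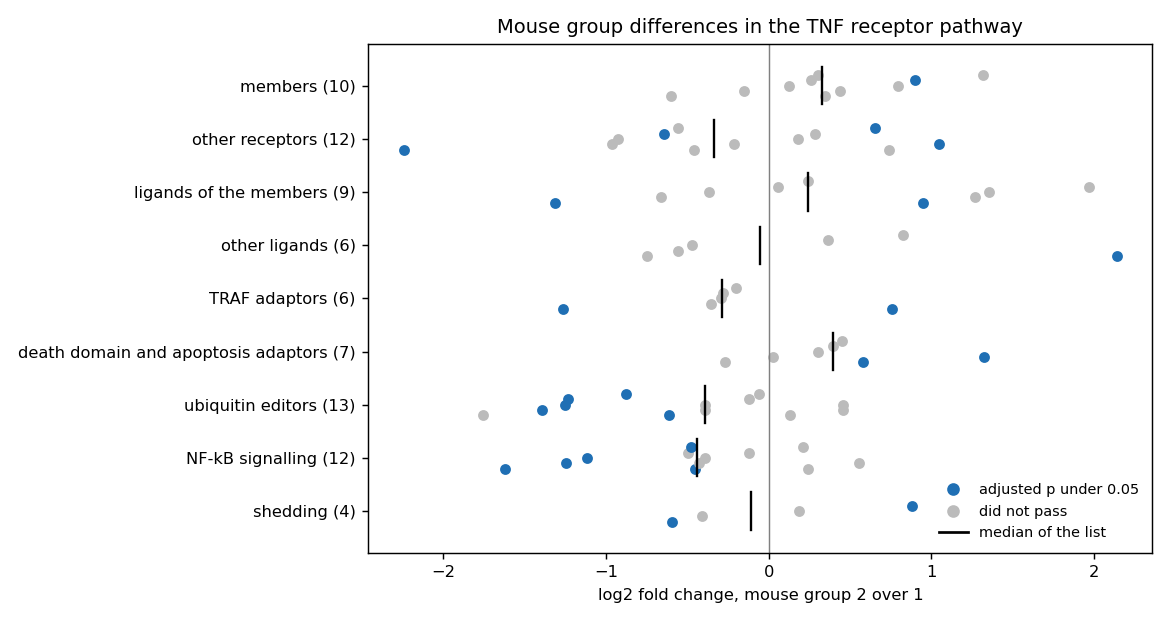
Log2 fold change of mouse group 2 over 1 for each tested gene of the 10 receptors and of the 8 pathway lists; points are genes, blue where the adjusted p was under 0.05, black bars are list medians, and the number of genes tested is in brackets. The ubiquitin and NF-kB lists hold 5 blue points each, all below 0, and the receptors hold 1, above 0.

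Of the 69 tested pathway genes, 18 separated all 5 libraries of mouse group 1 from all 4 of mouse group 2, against 21.8% of all genes. Relb, Birc3, Otulin and Traf6 were among them. Tnfrsf4, Tnfrsf9 and Tnfrsf18 separated only WT replicate 2 and Glut1Tg replicate 1 from the other 7 libraries.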

How the data were processed

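Per the labels' protocols, polyadenylated RNA was sequenced as paired-end reads from stranded libraries. The submitters' processing notes name build mm10 and the tools bcl2fastq, TopHat2, featureCounts and DESeq2, and no source used here gives their versions, settings or strand of counting. The deposited raw counts are whole-number counts per gene, not normalized. The deposited log2 values of 13700 genes, whose making the authors' labels do not describe, served for 1 alternative.

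Tests on the counts used edgeR 4.0.16 in R 4.3.3. filterByExpr by genotype kept 14817 genes, TMM scaled the libraries, and a quasi-likelihood model with genotype and mouse group over all 9 libraries gave log2 fold changes, SE, 95% intervals and two-sided p-values, adjusted by Benjamini-Hochberg over all genes tested (threshold 0.05). The interaction was fitted as a further term. Alternatives used DESeq2 1.42.0, limma 3.58.1, other scaling, no filter, subsets and left-out libraries. CPM were computed on TMM-scaled totals (raw totals 20881035 to 31196428 counts), and log2 fold changes had a median SE of 0.25. Correlations used log2 CPM with a prior count of 2. Exon lengths and positions came from GENCODE, promoter windows from RefSeq (GRCm38.p6; all 10 receptors matched). All pairs of libraries differed by more than sampling noise.

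The receptors, lists, tests and alternatives were chosen with earlier results of these data known. Named are all 10 receptors, Slc2a1 and Foxp3, the genes of each pathway list that passed, and the 3 protein-coding genes of at least 1 CPM most correlated with Tnfrsf4, Tnfrsf9, Tnfrsf18 and Tnfrsf1b. Lta, the TRAF adaptors that did not pass, Nfkb1, and the genes of the observations were named after their values were seen. Mki67, Il2ra, Cpa3 and Klra8 are from the marker lists, and 1 marker list is not reported here.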

Additional observations from a re-analysis of the deposited data

Results flagged for a closer look

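In 6 of the 20 sets of libraries checked (10 receptors in each genotype), 1 library lay far from the others of its genotype by Dixon's criterion, which flags about 1 in 20 sets by chance. All 6 concerned the same 3 genes and the same 2 libraries. WT replicate 2 was the high library for Tnfrsf4 (337 CPM), Tnfrsf9 (264 CPM) and Tnfrsf18 (408 CPM). Glut1Tg replicate 1 was the high library for Tnfrsf4 (376 CPM), Tnfrsf9 (345 CPM) and Tnfrsf18 (491 CPM). These genes are correlated, so the 6 are not independent.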

How the results depend on the processing

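None of the 10 receptors passed for genotype under any alternative run. Genes passing for genotype numbered 17 with DESeq2, 2 without the filter on low counts, 0 within mouse group 1, 0 within mouse group 2, 0 without WT replicate 2 and Glut1Tg replicate 1, and 1 to 2 with single libraries left out. Genes passing for mouse group numbered 790 within WT, 0 within Glut1Tg, 561 without WT replicate 2 and Glut1Tg replicate 1, and 651 (without Glut1Tg replicate 1) to 4575 with single libraries left out. Receptors passing for mouse group numbered 2 with RLE scaling, 3 with DESeq2, 3 without the filter, 0 within WT, 0 within Glut1Tg, 0 without those 2 libraries, and 0 to 3 with single libraries left out. The call of Tnfrsf18 was lost without any one of WT replicates 1, 2 and 3 and Glut1Tg replicates 1, 2 and 4 (adjusted p from 0.0553 to 0.307). Tnfrsf9 and Tnfrsf4 passed without WT replicate 4 (adjusted p = 0.0182 and 0.0166), and Tnfrsf9 without WT replicate 5 (adjusted p = 0.0300) and with RLE scaling (adjusted p = 0.04997). With single libraries left out the interaction, an alternative chosen after seeing the data, called 0 to 140 genes. In every count of 0 the cause was not tested.

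Signs turned for values that had not passed. For genotype the log2 fold change of Fas was 0.0024 without the mouse group term. Within mouse group 1 it was -0.071 for Tnfrsf4, -0.11 for Tnfrsf1b, 0.15 for Tnfrsf25 and 0.12 for Fas, and within mouse group 2 it was -0.38 for Tnfrsf1a. Without WT replicate 2 and Glut1Tg replicate 1 it was -0.10 for Tnfrsf4, -0.0189 for Tnfrsf18, -0.13 for Tnfrsf1b, 0.12 for Tnfrsf25 and 0.10 for Fas. In limma on the deposited log2 values it was -0.0447 for Tnfrsf1b. With single libraries left out it ran from -0.10 to 0.40 for Tnfrsf4, -0.0188 to 0.46 for Tnfrsf18, -0.13 to 0.20 for Tnfrsf1b, -0.0197 to 0.40 for Tnfrsf1a, -0.19 to 0.12 for Tnfrsf25 and -0.16 to 0.10 for Fas. For mouse group it was -0.0457 (Tnfrsf8) and 0.0342 (Fas) within WT, and -0.23 (Tnfrsf1a), -0.25 (Tnfrsf25) and -0.12 (Cd27) within Glut1Tg. Without both high libraries it was -0.0393 (Tnfrsf4), -0.10 (Tnfrsf9), -0.27 (Tnfrsf8) and 0.0174 (Fas). With single libraries left out it ran from -0.0480 to 0.47 for Tnfrsf8 and -0.25 to 0.0326 for Fas.

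Whether the replicate numbers of the labels pair libraries could not be told. Deviations of same-numbered libraries from their genotype means correlated at -0.51, -0.59, 0.23 and -0.21 for numbers 1 to 4. Numbers 1, 2 and 4 join libraries of different mouse groups, and the deviations still hold the mouse group differences. With the replicate number as a block 0 genes passed for genotype, 0 genes and 0 receptors passed for mouse group, and the log2 fold changes were -0.12 for Tnfrsf1b (genotype), -0.10 for Tnfrsf14 (mouse group) and 1.09 for Tnfrsf18 (mouse group; adjusted p = 0.0631). Depth limits Tnfrsf8 most, at 21 to 56 counts a library.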

Other observations

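The genes around Tnfrsf4 and Tnfrsf18 were looked at after the pattern of those 2 had been seen. Sdf4, which ends before Tnfrsf4 on the same strand, was at 494 and 505 CPM in WT replicate 2 and Glut1Tg replicate 1 and at 466 to 659 CPM in the other libraries (mouse group log2 fold change -0.29; edgeR adjusted p = 0.0890). In the same 2 libraries B3galt6 was at its highest, 7.67 and 8.17 CPM against 3.44 to 6.31 CPM elsewhere, and Agrn at its lowest, 3.12 and 3.63 CPM against 4.22 to 6.95 CPM elsewhere (edgeR mouse group adjusted p = 0.307 and 0.393). 9430015G10Rik was higher in mouse group 2 (log2 fold change 1.11; edgeR adjusted p = 0.00240), at 34.3 to 46.0 CPM there against 15.5 to 20.2 CPM in mouse group 1.

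In Glut1Tg replicate 3, the library with the high mast cell, platelet and myeloid markers, TNF ligands stood above the other libraries of mouse group 1. Tnf was at 30.6 CPM there against 4.58 to 8.64 CPM, and Lta at 181 CPM against 34.8 to 64.2 CPM. Tnfaip3, the ubiquitin editor A20, was at 82.4 and 68.8 CPM in WT replicate 2 and Glut1Tg replicate 1, at 264 CPM in Glut1Tg replicate 3 and at 420 to 733 CPM in the other 6 libraries, and did not pass for mouse group (log2 fold change -1.76; edgeR adjusted p = 0.0723).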
